A study of Rattus norvegicus with 458 samples.

Results

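The 2 arms of miR-126, miR-126a-3p and miR-126a-5p, were counted in 23 tissues of the rat together with 3 names that had few counts, miR-126b, miR-126-3p and miR-126-5p. The members were all names that hold miR-126, miR-126a or miR-126b as a part, with or without an arm, and precursor names were left out. This gave 5 of the 7534 names of the count table and 1786 of the 264294 isomiRs, the length and end variants of a miRNA. No name was a composite of a member with another miRNA. Sprague Dawley rats of both sexes, 12 to 13 weeks old and naïve to any treatment, gave the tissues. Libraries of the same 10 rats are present for 19 tissues and libraries of 5 rats for the ovary, the uterus and the testicle, while the dorsal root ganglion (DRG) has 10 technical libraries of 2 pools, 1 of each sex.

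miRNAs are cut from a hairpin precursor that gives a 5′ arm and a 3′ arm, and the bases of an arm from 2 to 8, its seed, pair with target mRNAs. The hairpin of miR-126 lies in an intron of Egfl7, a gene of endothelial cells, and the miRNA is known for its part in vascular integrity and in the response of endothelium to VEGF. Every organ holds blood vessels, so a miRNA of endothelium is read in all of them when whole tissue is sequenced. In such bulk samples fewer cells of a type and less RNA per cell cannot be told apart, and the tables hold no mRNA from which the share of endothelium could be read.

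Both main arms lie on the plus strand of chromosome 3 in the rat build GRCr8, miR-126a-5p at chr3:29813182-29813202 and miR-126a-3p at chr3:29813219-29813240, while miR-126b is placed on the minus strand at chr3:29813177-29813198. The RefSeq gene symbols Mir126a and Mir126b stand the other way round for these strands, so mature names were used. The stretch from the first base of the 5′ arm to the last base of the 3′ arm is shown first, with both arms in capitals, and then the mature sequences of RefSeq with the seed in capitals, since all isomiR ends below are counted from them.
stretch of both arms: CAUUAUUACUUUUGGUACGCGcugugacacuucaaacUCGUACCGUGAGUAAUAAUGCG
miR-126a-5p: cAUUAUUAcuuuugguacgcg
miR-126a-3p: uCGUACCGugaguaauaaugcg
miR-126b: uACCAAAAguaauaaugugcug

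IsomiRs of the 3′ arm are shown as read in the libraries, from the most counted downward, because they differ at both ends and a shift of the 5′ end changes the seed (capitals). The first is the RefSeq sequence and held 33.8% of the counts of miR-126a-3p, and the others held 11.1%, 9.31%, 8.65%, 8.39%, 6.09% and 4.77%. The third and the fifth start 1 base later, so their seed is GTACCGT and not CGTACCG. The last carries T23A, an A in place of the T that the locus has at position 23, counted from 1 at the first base of the RefSeq sequence.
3p isomiR 1: tCGTACCGtgagtaataatgcg
3p isomiR 2: tCGTACCGtgagtaataatg
3p isomiR 3: cGTACCGTgagtaataatgcgt
3p isomiR 4: tCGTACCGtgagtaataatgc
3p isomiR 5: cGTACCGTgagtaataatgcg
3p isomiR 6: tCGTACCGtgagtaataatgcgt
3p isomiR 7: tCGTACCGtgagtaataatgcga

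The 5′ arm was close to a single sequence. Its most counted isomiR, the RefSeq sequence, held 84.9% of the counts of miR-126a-5p, and the next, with C22A as an added base, held 3.17%.
5p isomiR 1: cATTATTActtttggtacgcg
5p isomiR 2: cATTATTActtttggtacgcga

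The most counted sequences of the names with few counts are shown to make clear what was read under these names. For miR-126b it was not the RefSeq sequence but one that starts 4 bases earlier on the minus strand, and it holds the reverse complement of all 21 bases of miR-126a-5p. Of 162 counts of miR-126b, 128 started at that base and 19 at the RefSeq start. The most counted sequence of miR-126-3p, with 122 of 185 counts, matches miR-126a-3p from its second base and ends in bases that the rat locus does not hold (T23A and G24C). The 18 counts of miR-126-5p were spread over 9 isomiRs, of which the most counted had 8 and starts with bases absent from the locus.
miR-126b, most counted: cGCGTACCaaaagtaataatgt
miR-126-3p, most counted: cGTACCGTgagtaataatgcgac
miR-126-5p, most counted: gGCATTATtacttttggtacgcg

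Of the 5 names, miR-126a-5p had 5545150 counts and miR-126a-3p had 1705619 counts over all libraries, and both were read in every library. Library totals lay between 376401 and 17725805 counts, and outside blood every library held at least 309 counts of miR-126a-3p and 1271 of miR-126a-5p (18 and 75 in blood). Levels below are counts-per-million of the library total (CPM), with the SD over rats. By correlation of whole profiles, 10 libraries were closer to another tissue than to their label, by more than 0.05 in the median correlation. They were 4 of the duodenum, 3 of the hippocampus and 1 each of the adrenal, the ovary and the uterus. Of the 444 sequencing runs summed here, 14 came from lane 8 of flow cell C2BUMACXX, where sequence ends differed from all other lanes.

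Heart held most miR-126 and whole blood the least, for both arms. For miR-126a-3p the 10 hearts ranged from 5508 to 6597 CPM with a median of 6186, and for miR-126a-5p from 15026 to 21380 CPM with a median of 17669. None of the 197 libraries or pools of other tissues reached the lowest heart in miR-126a-3p, and 2 of them did in miR-126a-5p. In whole blood miR-126a-3p ranged from 3.11 to 155 CPM with a median of 6.37, and miR-126a-5p from 12.9 to 539 CPM with a median of 26.8. All blood libraries lay below every library of another tissue in both arms. Mean CPM in heart was 287 times that in blood for miR-126a-3p and 228 times for miR-126a-5p, and 943 and 646 times when the blood of rat 6, which is described further on, was left out.

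After heart came the liver, with 3818 ± 333 CPM (SD, n = 10) of miR-126a-3p, against 6156 ± 369 CPM in heart. The red, oxidative soleus muscle followed with 2613 ± 170 CPM and the kidney cortex with 2275 ± 181 CPM. Libraries of heart and liver did not overlap, nor did those of liver and soleus, while soleus and kidney cortex overlapped.

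Many tissues lay close together in the middle of the order of miR-126a-3p. The ovary had 2251 ± 863 CPM (n = 5), the kidney medulla 2074 ± 218 CPM, the whole kidney 2054 ± 353 CPM and the brainstem 1944 ± 198 CPM. The adrenal had 1653 ± 346 CPM, the biceps muscle 1645 ± 271 CPM, the cerebrum 1528 ± 195 CPM and the hippocampus 1247 ± 551 CPM. Each of these tissues overlapped with its neighbours in the order.

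In the lower part of the order of miR-126a-3p were the DRG with 1012 ± 124 CPM (n = 2 pools), the pancreas with 975.3 ± 142 CPM, the cerebellum with 891 ± 114 CPM and the testicle with 888 ± 126.3 CPM (n = 5). The duodenum had 884 ± 282 CPM, the uterus 770 ± 152 CPM (n = 5), the glandular stomach 525 ± 90.8 CPM, the ileum 515 ± 87.6 CPM and the jejunum 506 ± 58.7 CPM. The non-glandular stomach, a keratinised squamous lining over muscle, had 246 ± 53.2 CPM, and its libraries did not overlap with the jejunum above or with blood below. Among solid tissues the highest mean was 25.01 times the lowest.

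The place of the stomach in this order depends on 1 other name. miR-143-3p, a miRNA of smooth muscle, took 77.0% to 87.9% of all counts in libraries of the non-glandular stomach and 68.0% to 79.5% in those of the glandular stomach. With the most counted name of each library left out of its total, mean miR-126a-3p was 1546 CPM in the non-glandular stomach, which moved from place 22 to place 16, and 2037 CPM in the glandular stomach, which moved from 19 to 12. The ileum was then the lowest solid tissue with 746 CPM, and heart was 12.4 times as high. For miR-126a-5p the range over solid tissues changed from 22.4 to 11.9 times, and the lowest solid tissue again from the non-glandular stomach to the ileum. Heart and liver stayed the highest and blood the lowest for both arms.

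For miR-126a-5p the order was nearly the same, at about 3 times the level. Heart had 18018 ± 2287 CPM and liver 13630 ± 1577 CPM, and here their libraries overlapped. The soleus had 7860 ± 661 CPM, the kidney medulla 7750 ± 1090 CPM, the kidney cortex 7645 ± 776 CPM and the whole kidney 6957 ± 1474 CPM. The ovary had 6589 ± 4277 CPM, and its 5 libraries fell between 1440 and 10421 CPM.

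The brain regions stood at 6043 ± 1120 CPM of miR-126a-5p in the brainstem, 5047 ± 1217 CPM in the cerebrum, 4645 ± 2487 CPM in the hippocampus and 2986 ± 489 CPM in the cerebellum. The adrenal had 5612 ± 1158 CPM, the biceps 4335 ± 1168 CPM, the DRG 3858 ± 623 CPM, the testicle 3470 ± 421 CPM, the pancreas 3076 ± 578 CPM, the duodenum 2808 ± 1095 CPM and the uterus 2657 ± 474 CPM. The lowest solid tissues were the ileum with 1564 ± 253 CPM, the jejunum with 1559 ± 262 CPM, the glandular stomach with 1556 ± 276 CPM and the non-glandular stomach with 806 ± 188 CPM. Neighbours did not overlap between liver and soleus, between uterus and ileum, between the stomach parts and between the non-glandular stomach and blood.

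**Figure D1:**
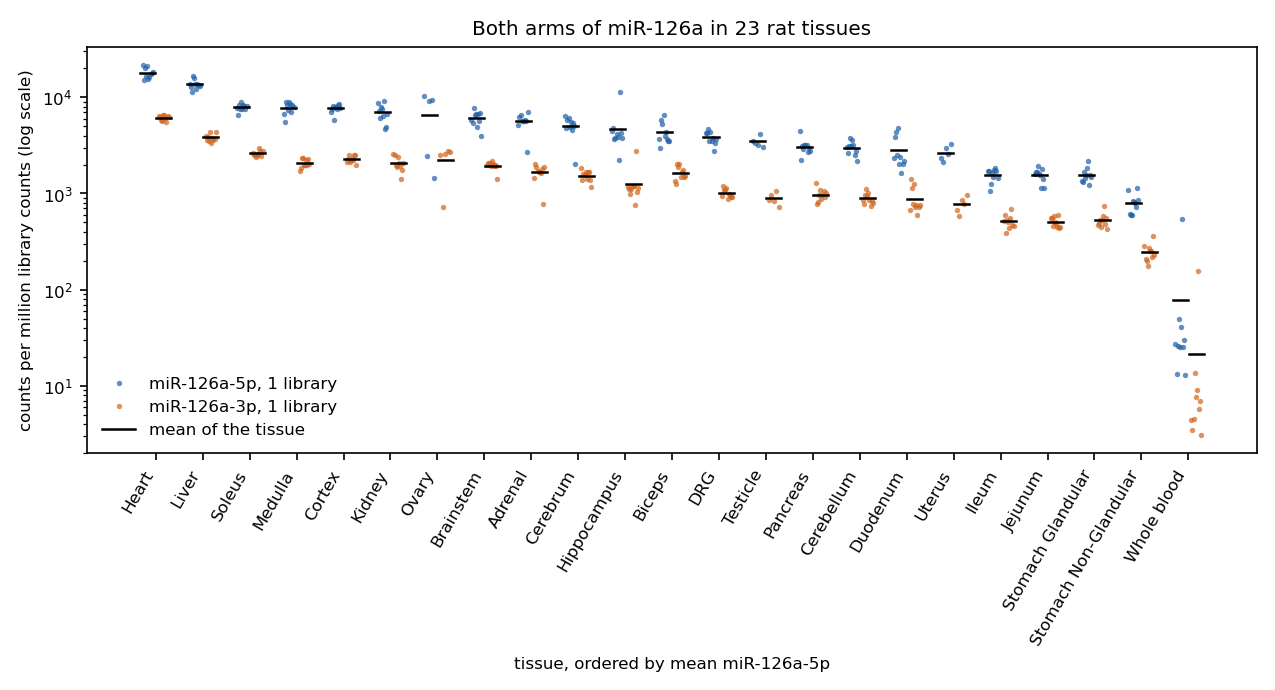
Levels of miR-126a-3p and miR-126a-5p in CPM on a log axis, with 1 point per library (all technical libraries of the DRG pools included) and a bar for the mean, by tissue in the order of the mean of miR-126a-5p. Heart libraries lie at the top for both arms (5508 to 6597 CPM and 15026 to 21380 CPM), and blood lies at the bottom with rat 6 apart from the other 9.

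For miR-126a-3p the SD narrowed without the libraries that were closer to another tissue, other than in the uterus. Without them the hippocampus had 1136 ± 62.4 CPM of miR-126a-3p (n = 7), the duodenum 737 ± 41.1 CPM (n = 6), the adrenal 1751 ± 163 CPM (n = 9) and the ovary 2634 ± 120 CPM (n = 4). The mean of the uterus was 770 CPM with and without its library. For miR-126a-5p the means without them were 4163 CPM in the hippocampus, 2244 CPM in the duodenum, 5934 CPM in the adrenal, 7622 CPM in the ovary and 2682 CPM in the uterus, and the SD of the ovary stayed wide at 4156 CPM (n = 4).

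Each tissue was then compared with the mean of the other 22 tissues in edgeR's quasi-likelihood test, after upper quartile scaling and with Benjamini-Hochberg adjustment over the 1641 names that passed the filter, 3 of them members. In heart miR-126a-3p was higher by 3.01 ± 0.15 on the log2 scale (SE, adjusted p = 2.97e-45) and miR-126a-5p by 2.85 ± 0.16 (adjusted p = 9.3e-41). Of all names, 28.9% were called higher in heart. In blood miR-126a-3p differed by -3.48 ± 0.29 (adjusted p = 1.55e-24) and miR-126a-5p by -3.28 ± 0.29 (adjusted p = 2.01e-22), where 16.6% of all names were called lower.

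Calls for miR-126a-3p were higher in 8 tissues and lower in 6, and for miR-126a-5p higher in 7 and lower in 6, against 34.7% of all names and tissues called in either direction. Beside heart, both arms were higher in the liver (2.24 and 2.35), the kidney medulla (1.49 and 1.70), the whole kidney (1.43 and 1.52), the soleus (1.24 and 1.12) and the kidney cortex (1.24 and 1.28). These 6 tissues and the fall in blood were called for both arms under all 4 scalings tried, upper quartile, TMM, DESeq2 and the library total alone. The biceps (0.58, adjusted p = 0.0129) and the ovary (0.68, adjusted p = 0.0491) were called higher for miR-126a-3p, also under all 4 scalings, and for miR-126a-5p neither was called by upper quartile scaling. The call of the ovary was lost in 10 of 12 fits that left out a rat or a DRG pool (0.39 to 0.85) and held without the library of rat 11, whose profile was closer to another tissue (0.90). The uterus was called higher for miR-126a-5p (0.79), where it turned to -0.43 with the library total.

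None of the lower calls outside blood held under all 4 scalings. With upper quartile scaling both arms were lower in the brainstem (-1.10 and -1.17), the cerebrum (-1.18 and -1.14), the cerebellum (-1.43 and -1.40), the testicle (-2.17 and -1.91) and the duodenum (-0.54 and -0.65). Without the 4 duodenum libraries whose profile was closer to another tissue, and the 6 such libraries elsewhere, the duodenum was no longer called (-0.31 and -0.43, adjusted p = 0.364 and 0.188). The hippocampus, which was not called with all its libraries (-0.35 and -0.14), was then lower by -1.72 and -1.54 (adjusted p = 1.33e-10 and 1.24e-08). The uterus was then also called for miR-126a-3p (0.74) and the adrenal for miR-126a-5p (0.48). With the library total the brainstem turned to 0.89 and 0.81 and the cerebrum to 0.53 and 0.54. The median of all names in the brainstem moved as well, from -0.91 with upper quartile scaling to 0.65 with the library total. Median scaling factors of the upper quartile ran from 0.159 in blood to 3.79 in the brainstem and 4.06 in the testicle, so the order by CPM and the order by scaled counts differ.

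Between neighbours in the order by CPM, 10 of 22 differed for miR-126a-3p (29.8% of all names in the same comparisons) and 12 of 22 for miR-126a-5p (28.2%). Heart exceeded liver in miR-126a-3p by 0.73 ± 0.29 (adjusted p = 0.0404) and not past the threshold in miR-126a-5p (0.48 ± 0.29, adjusted p = 0.225). Liver exceeded soleus by 0.96 ± 0.29 and 1.18 ± 0.30 (adjusted p = 0.00403 and 0.000438), where DESeq2 gave -0.08 for miR-126a-3p. The non-glandular stomach exceeded blood by 2.95 ± 0.31 and 2.74 ± 0.31. The uterus exceeded the ileum in miR-126a-5p by 1.203 ± 0.35 (adjusted p = 0.00667). All other called neighbours overlapped in CPM, and 4 of the 10 calls of miR-126a-3p and 5 of the 12 of miR-126a-5p went against the order by CPM. With the library total 3 neighbours of each arm were called.

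Among 12 anatomical contrasts 4 were called for each arm, against 18.1% of all names. Heart exceeded the soleus by 1.69 ± 0.30 in miR-126a-3p and 1.65 ± 0.30 in miR-126a-5p, and the biceps by 2.32 ± 0.30 and 2.49 ± 0.31. Blood differed from the mean of the 21 solid tissues other than the DRG by -3.55 ± 0.29 and -3.34 ± 0.29. The hippocampus exceeded the cerebrum by 0.80 ± 0.29 and 0.96 ± 0.30 on scaled counts, but this turned to -0.29 and -0.12 with the library total and to -0.56 and -0.43 without the libraries that were closer to another tissue. The soleus exceeded the biceps by 0.63 ± 0.29 (adjusted p = 0.292) and 0.84 ± 0.30 (adjusted p = 0.0954), which did not pass the threshold.

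Female and male rats were compared within each of the 19 tissues that have both, over 1122 names, of which 1.49% were called over all tissues. Only whole blood was called for the 2 arms. Blood of females had 3.11 to 7.01 CPM of miR-126a-3p and blood of males 4.57 to 155 CPM, and the sexes overlapped. The log2 difference of females to males was -2.52 ± 0.37 for miR-126a-3p (adjusted p = 5.73e-08) and -2.22 ± 0.37 for miR-126a-5p (adjusted p = 2.29e-06). Without rat 6, a male, the difference was -1.26 (adjusted p = 0.0293) and -1.10 (adjusted p = 0.0728), and with only the runs of flow cell D1GBMACXX it was not called for either arm.

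In the remaining 18 tissues no difference between sexes passed the threshold. The libraries of the sexes did not overlap in 1 of 19 tissues for miR-126a-3p and in 2 of 19 for miR-126a-5p, against 1.33% of all names and tissues. They did not overlap in the cerebellum, where females had 736 to 860.5 CPM of miR-126a-3p and males 860.8 to 1102 CPM, and 2190 to 3055 CPM against 3086 to 3751 CPM of miR-126a-5p. In the biceps females had 2936 to 3710 CPM of miR-126a-5p and males 3972 to 6535 CPM. The fitted differences there were -0.20 ± 0.34, -0.28 ± 0.35 and -0.41 ± 0.35, each with an adjusted p of 1. Averaged over the 19 tissues the difference was -0.19 ± 0.08 (adjusted p = 0.216) and -0.24 ± 0.08 (adjusted p = 0.12). This fit took the libraries of a rat as separate samples, so the SE is not a spread over rats.

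Blood of rat 6 stood apart from the other 9 in both arms, and its 2 runs differed. The run on flow cell D1GBMACXX gave 15.5 CPM of miR-126a-3p and 72.3 CPM of miR-126a-5p, and the run on lane 7 of C2BUMACXX gave 175 and 604 CPM. Muscle miRNAs differed between these runs as well. The summed level of the 6 striated muscle miRNAs, among them miR-208a-3p, miR-1-3p and miR-133a-3p, was 156 CPM in the first run and 3521 CPM in the second, and that of the 4 smooth muscle miRNAs (both arms of miR-143 and miR-145) was 291 and 3084 CPM. High smooth muscle sums were also read without high miR-126, in the D1GBMACXX runs of the blood of rat 10 (2814 CPM, with 5.74 CPM of miR-126a-3p) and of rat 8 (1418 CPM, with 5.49 CPM). Their part in the level of miR-126 was not tested. Over all libraries the runs on D1GBMACXX and on other flow cells differed more than 2-fold in 3 libraries for miR-126a-3p and in 2 for miR-126a-5p, all of them blood. Apart from rat 6 these rest on few counts in a run. For miR-126a-3p the runs held 1 and 19 counts in rat 11 and 9 and 14 in rat 2. For miR-126a-5p they held 11 and 478 counts in rat 3. In blood the composite miR-3107-5p;miR-486-5p of red cells took between 79.3% and 90.5% of all counts of a run, which lowers the CPM of every other name.

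The arms moved together. Over the means of 22 tissues without the DRG, the Pearson correlation of the arms was 0.996, and 0.989 over 21 tissues without blood, as a description of levels that share library and total. Within a tissue of 10 rats it lay between 0.0154 and 0.986 with a median of 0.749. The 5′ arm was counted more often than the 3′ arm in 214 libraries and less often in 1. Its relative spread over rats was also larger, since the coefficient of variation of miR-126a-5p exceeded that of miR-126a-3p in 17 of 22 tissues.

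The ratio of the arms, log2 of the 3p count over the 5p count, does not depend on the library total. In the biceps it ranged from -1.68 to -1.07 with a median of -1.41, and it was above the mean of the other tissues of the same rat in 10 of 10 rats. The mean difference was 0.34 (exact sign flip test over rats, two-sided, adjusted p = 0.0286). In the kidney medulla the ratio ranged from -2.15 to -1.58 with a median of -1.92, and the difference was -0.21 with 9 of 10 rats below (exact test, adjusted p = 0.0286). In blood it ranged from -2.62 to -1.74 with a median of -2.10 over the 9 libraries with 20 or more counts of each arm, and the difference was -0.41 with all 9 below (exact test, adjusted p = 0.0286). With 9 rats the smallest p in this test is 0.00391. Leaving out 1 rat ended the call in 6 of 10 cases in the biceps (0.31 to 0.37), in 6 in the medulla (-0.24 to -0.18) and in 7 in blood (-0.46 to -0.35), for rats 2, 5, 6, 7, 8 and 10 in all of them and also rat 11 in blood. All biceps fits without 1 rat gave p = 0.00391 in the exact test, and the blood fits with 8 rats gave p = 0.00781. These are the smallest p possible with 9 and 8 rats. The biceps was not called without its 4 re-extracted libraries (0.31, exact test, n = 6, adjusted p = 0.117), nor blood with only the other flow cells than D1GBMACXX (-0.28, exact test, n = 6, adjusted p = 0.1003). Before adjustment both had p = 0.0313 in the exact test, the smallest possible with 6 rats. These lost calls therefore cannot be told apart from the smaller n.

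In counts, which ligase bias may shift between the arms, 5p was 2.59 times 3p in the biceps, 3.72 times in the medulla and 4.28 times in blood. Heart (0.16 above the other tissues), soleus (0.11 above) and adrenal (0.08 below) missed the threshold narrowly (exact test, adjusted p = 0.0501 for each), and passed it without lane 8 (adjusted p = 0.043). Means were highest in the ovary (-1.31), the biceps (-1.37) and the heart (-1.54) and lowest in blood (-2.10), the testicle (-1.97) and the medulla (-1.89). Tissues of 5 rats cannot go below p = 0.0625 in this test, which leaves the ovary, the uterus and the testicle without a call.

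The mean of the ovary rests on the library of rat 9, the exception. There miR-126a-3p was counted more often than miR-126a-5p, with a log2 ratio of 0.91, and its 2 runs were alike (0.914 and 0.902). Its miR-126a-5p was 1440 CPM, the lowest of the 5 ovaries, and the other 4 ratios lay between -2.06 and -1.77. The larger run of this ovary was on lane 4 of flow cell D2C4RACXX and the larger run of the cerebrum of rat 9 on lane 8 of C2BUMACXX, and their other runs gave like ratios (0.902 and -0.86). The cerebrum and the cerebellum of rat 9 also had the highest ratio of their 10 libraries, with -0.79 and -1.44.

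**Figure D2:**
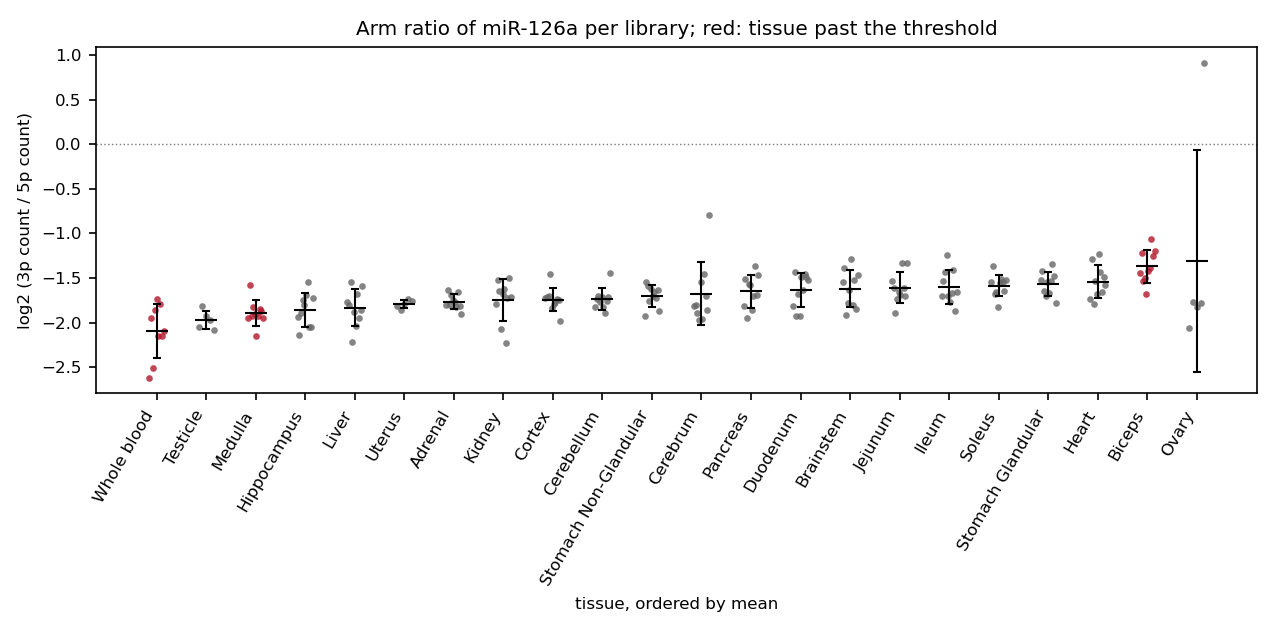
Log2 ratio of the miR-126a-3p count to the miR-126a-5p count, with 1 point per library, the mean and SD as bars, and called tissues in red, by tissue in the order of the mean and without the DRG. All but 1 of the points lie below 0, where the 5′ arm has more counts, and the point above 0 is the ovary of rat 9 (0.91).

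Ends of the sequences were placed on the locus before they were compared between tissues. Of the counts of miR-126a-3p, 71.8% started at the RefSeq base, 22.3% started 1 base later and 5.78% 1 base earlier (4.35% without the lane described next). At its 3′ end 49.2% stopped at the RefSeq base, 22.9% were 1 base longer, 13.1% were 1 base shorter and 13.2% were 2 bases shorter. The ends were linked, since among sequences that started 1 base later 49.3% were 1 base longer at the 3′ end, against 16.1% among those that started at the RefSeq base. The base added at the 3′ end was T, as in the genome, in 72.2% and A in 26.7%.

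The 5′ end of miR-126a-5p was fixed, apart from 1 lane. In the 14 runs on lane 8 of flow cell C2BUMACXX, between 83.2% and 85.1% of its counts started 1 base earlier. In all other runs the median was 0.05% and the highest value 0.52%. The base in front was C in 46.8%, G in 33.4%, A in 15.1% and T in 4.67% of these counts. The locus holds A there, so most of these bases did not match it. The same lane gave starts 1 base earlier in 41.8% to 48.4% of the counts of miR-126a-3p, where the other runs had a median of 4.19%. These 14 runs belong to 14 libraries of 14 tissues, so shares of isomiR ends are given below without this lane, an alternative chosen after the data were seen. Mismatches to the locus outside a 3′ tail also differed between lanes. A base in front that differs from the locus is counted here, so on lane 8 the mismatches are not separate from the earlier start. On lane 8 of C2BUMACXX between 70.8% and 73.2% of the counts of miR-126a-5p held such a mismatch. On lane 4 of flow cell D2C4RACXX the share was between 13.8% and 15.4%, and on its lanes 1 and 6 between 3.903% and 7.68%. All remaining lanes had at most 3.47%. For miR-126a-3p runs on lane 4 of D2C4RACXX had 11.3% to 13.2%, and those on its lanes 1 and 6 had 7.60% to 11.9%. On lane 8 of C2BUMACXX it was 62.4% to 69.0%. Runs on the remaining lanes had 2.48% to 9.36%, with lane medians of 5.28% to 7.41%. Without lanes 1, 4 and 6 of D2C4RACXX as well, 43 of the 44 calls of isomiR shares described below held.

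**Figure D3:**
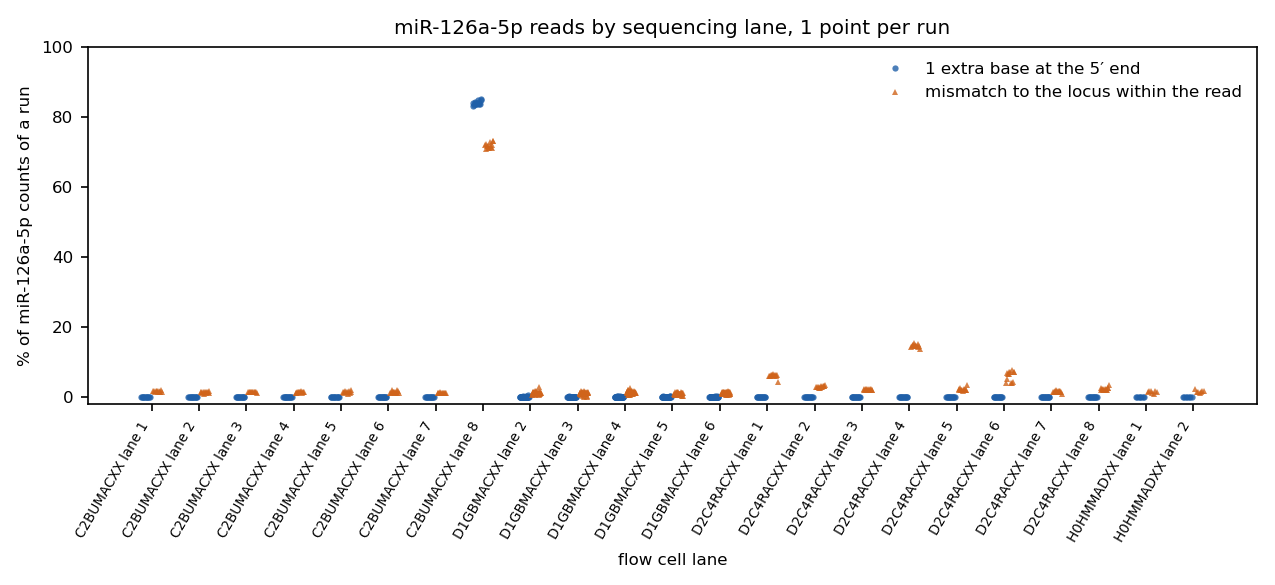
Share of the miR-126a-5p counts of a run, in percent, that start 1 base before the RefSeq sequence (blue) or hold a mismatch to the locus outside a 3′ tail (orange), with 1 point per run, by flow cell and lane. Blue points of lane 8 of flow cell C2BUMACXX lie between 83.2% and 85.1%, and those of all other lanes lie at 0.52% or less. Orange points lie between 70.8% and 73.2% on lane 8 of C2BUMACXX and between 13.8% and 15.4% on lane 4 of D2C4RACXX. A base in front that differs from the locus counts as such a mismatch.

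Without lane 8, the share of miR-126a-3p with another 5′ end, and so with another seed, differed between tissues. It was lowest in the pancreas with 20.2% to 23.6% (median 22.3%), below the other tissues of the same rat in 10 of 10 rats. All 10 pancreas libraries were re-extracted and had an RNA integrity number, on a scale that is highest for intact RNA, of 4.9 to 6.8, and the part of this in the result cannot be told apart from the tissue. The biceps (mean 23.3%), the soleus (23.4%) and the heart (25.1%) were also lower in all 10 rats. It was higher in the cerebrum (28.2%), the hippocampus (29.3%), the kidney medulla (30.0%) and the liver (30.1%). Libraries of the liver ran from 28.4% to 30.9% and did not overlap with those of the pancreas or the striated muscles. All these differences had an adjusted p between 0.0116 and 0.0313 in the exact sign flip test. The ovary (30.7%) and the testicle (30.8%) had the highest means but too few rats for a call. With lane 8 kept, only the liver was called. The hippocampus was 28.8% without its 3 libraries closer to another tissue and then missed the threshold (exact test, n = 7, adjusted p = 0.0507). The cerebrum was no longer called without lanes 1, 4 and 6 of D2C4RACXX (exact test, adjusted p = 0.122) or when any of 8 of the 10 rats was left out. Without re-extracted libraries the liver (n = 5, too few for a call) and the biceps (n = 6) were not called. The difference of the biceps was then -4.40 percentage points, against -4.22 with all its libraries, and 6 rats cannot go below p = 0.0313 in the exact test.

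The 3′ end of miR-126a-3p was more often shorter in the stomach and the ileum and more often longer in the heart, the liver and the kidney medulla. Sequences with a shorter 3′ end made up 31.0% to 39.2% in the non-glandular stomach (median 35.7%) and 29.2% to 36.6% in the glandular stomach (median 32.1%), and were also more frequent in the ileum (mean 31.9%). They were less frequent in the brainstem (23.2%), the liver (24.7%), the cerebrum (24.9%), the cerebellum (25.1%) and the kidney medulla (26.3%), each below the other tissues of the same rat in 10 of 10 rats. The testicle had the lowest mean, with too few rats for a call. Longer 3′ ends made up 17.7% in the non-glandular stomach, 20.1% in the glandular stomach and 21.0% in the biceps, against 24.1% in the heart, 25.2% in the liver and 25.5% in the kidney medulla. Adjusted p was between 0.0116 and 0.0272 for these tissues in the exact test.

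The share of the single most counted sequence of miR-126a-3p differed in 7 tissues. It was 38.2% in the brainstem, 36.7% in the cerebellum and 36.6% in the cerebrum, all higher than in the other tissues. In the non-glandular stomach (31.1%), the ileum (31.5%), the glandular stomach (32.7%) and the kidney cortex (32.7%) it was lower. In the kidney cortex none of the 3 shares of ends was called, and the call of the most counted sequence was lost when any of 8 of the 10 rats was left out. The pancreas, the biceps, the soleus and the heart, which had the fewest other 5′ ends among called tissues, were not called for the most counted sequence (34.7% to 36.2%).

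miR-126a-5p varied less at its 3′ end. Shorter ends made up 5.69% in the pancreas, 5.22% in the jejunum, 5.04% in the ileum and 4.27% in the biceps, all called higher. They made up 3.10% in the liver, 2.98% in the cerebellum, 2.87% in the cerebrum, 2.57% in the brainstem and 2.04% in blood (n = 8), all called lower. The share in blood rests on few reads, since the runs of rat 7, for example, held 97 and 23 counts of miR-126a-5p. RNA of the pancreas, with all 10 of its libraries among the 22 with an RNA integrity number below 7, was the least intact of the series, and this cannot be told apart from the tissue in its shorter ends either. The calls of the biceps and of blood were lost when any of 7 and 8 of the 10 rats was left out.

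Few other shares of miR-126a-5p were called without lane 8. Its most counted sequence was higher in blood (90.4%, on the same few counts per library) and lower in the ileum (85.3%). The ileum of rat 5 was on lane 4 of D2C4RACXX, where mismatches were frequent (15.01%), and no blood run was. Without lanes 1, 4 and 6 of that flow cell the shares were 90.1% in blood (exact test, n = 7, adjusted p = 0.0489) and 86.9% in the ileum (exact test, adjusted p = 0.0229). Both calls were lost when any of 8 of the 10 rats was left out, and that of the ileum without the libraries closer to another tissue (exact test, adjusted p = 0.0507). Its longer 3′ ends were less frequent in the non-glandular stomach (5.46%), the cerebellum (5.50%) and the cerebrum (5.58%), the first of these lost when any of 8 of the 10 rats was left out. Another 5′ end was read in 0.22% of its counts in the biceps, against 0.16% in the other tissues of the same rats (exact test, adjusted p = 0.0204). With lane 8 kept, 8 tissues were called lower in this share.

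**Figure D4:**
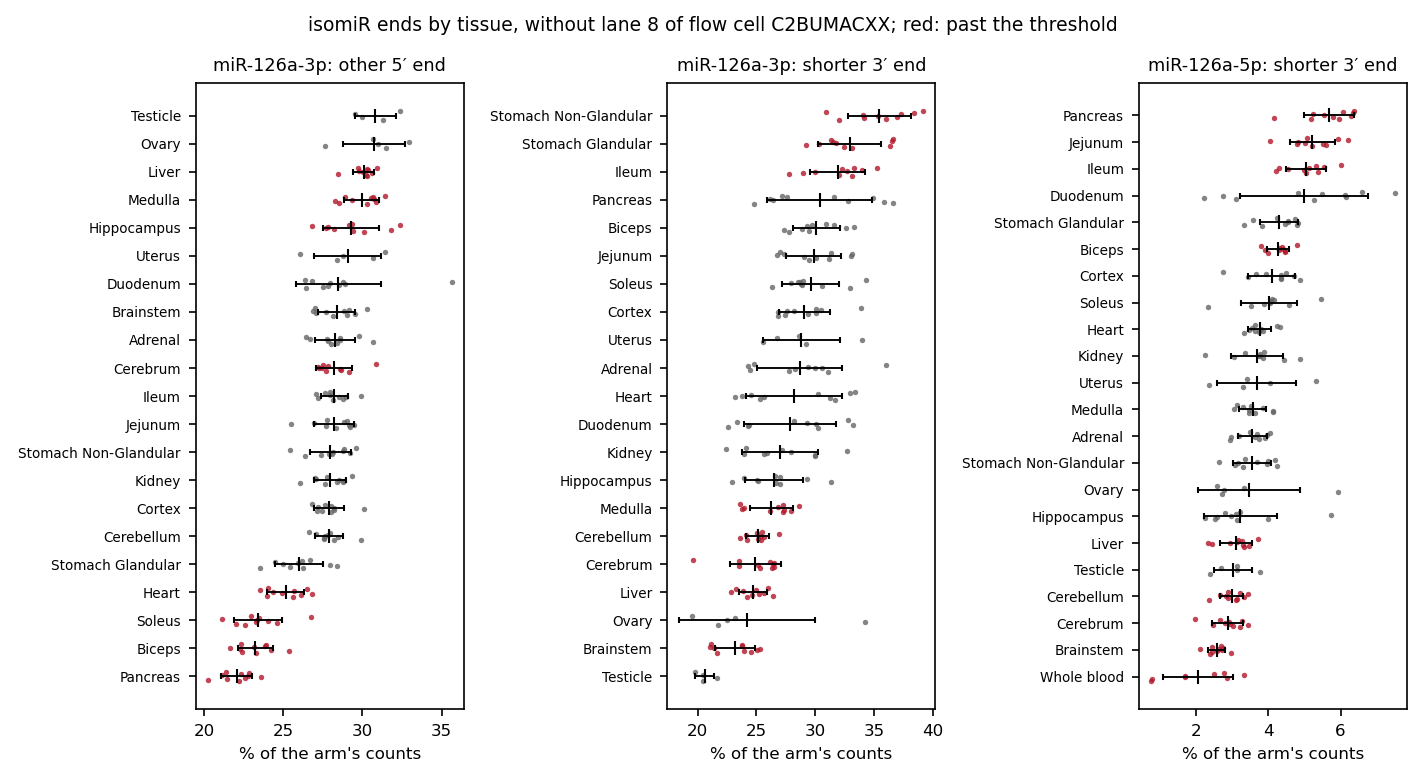
Shares of isomiR ends by tissue in percent of the arm's counts, without lane 8 of flow cell C2BUMACXX, without the DRG, with 1 point per library, the mean and SD as bars, and called tissues in red. The non-glandular stomach has most shorter 3′ ends of miR-126a-3p (mean 35.4%), and the brainstem (23.2%) is the lowest called tissue.

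miR-126b was a name of the adrenal, at a level far below that of the main arms. Of its 162 counts 91 were in adrenal libraries, 9 of the 10 adrenals had a count above 1, and their levels ran from 0 to 2.81 CPM with a median of 1.46. The pooled level in the adrenal was 1.497 CPM, with an exact Poisson interval at 95% of 1.205 to 1.84 that covers counting error only. The adrenal at 0 was that of rat 8, whose profile was closer to the jejunum than to the adrenal. Relative to the 5′ arm, miR-126b had 261 counts-per-million of miR-126a-5p in the adrenal, 139 in the ileum, 106 in the ovary, 16.2 in the liver and 3.89 in the heart, so its order over tissues was not that of the main arms.

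The ovary followed with 15 counts in 3 of 5 libraries (0 to 1.48 CPM). The liver had 9, the ileum 10, the duodenum 7 and the hippocampus 5 counts. All 7 counts of the duodenum were in rat 11, whose profile was closer to the adrenal, and 4 of the 5 of the hippocampus were in rat 7, whose profile was closer to the ovary. None were read in the brainstem, cerebrum, non-glandular stomach, testicle, uterus or blood. A count of 0 allows up to 0.0430 CPM in the non-glandular stomach and, with its smaller libraries, up to 1.24 CPM in the testicle.

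In the fit miR-126b was higher in the adrenal by 4.17 ± 0.38 on the log2 scale (adjusted p = 1.39e-19), where 18.2% of all names were called higher. The name passed the filter on low counts through its adrenal libraries, which reached 2.81 CPM, against at most 1.48 CPM in the ovary and 1.36 CPM in the duodenum. Its test in the adrenal is therefore no support separate from the filter. miR-126b was also called higher in the ovary (2.78 ± 0.52), the ileum (2.36 ± 0.49), the liver (2.03 ± 0.47) and the duodenum (1.199 ± 0.41), on few counts. Without rat 11 the duodenum turned to -1.83. The adrenal was called under all alternatives tried in which the name was tested, and DESeq2 called it alone. These fits use the same adrenal counts, so they are no separate support either.

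miR-126-3p had more counts in the heart than in any other tissue. Its 185 counts lay in 97 libraries, at most 6 in a library. Of these counts 32 were in heart, where 8 of 10 libraries had a count above 1, and 13 in the ovary, where 4 of 5 had. The pooled level was 0.572 CPM in the heart (exact Poisson interval 0.391 to 0.807) and 0.620 CPM in the ovary (0.330 to 1.06), which overlap. No count was read in the testicle and 1 in blood. Over the series miR-126-3p made up 108 counts-per-million of miR-126a-3p. Heart had 344345 counts of miR-126a-3p and the ovary 52191, so relative to miR-126a-3p the ovary had more miR-126-3p than heart. miR-126-5p had 18 counts in 15 libraries of 12 tissues, with 4 in the soleus as the highest number. Neither name passed the filter, so neither was tested.

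**Figure D5:**
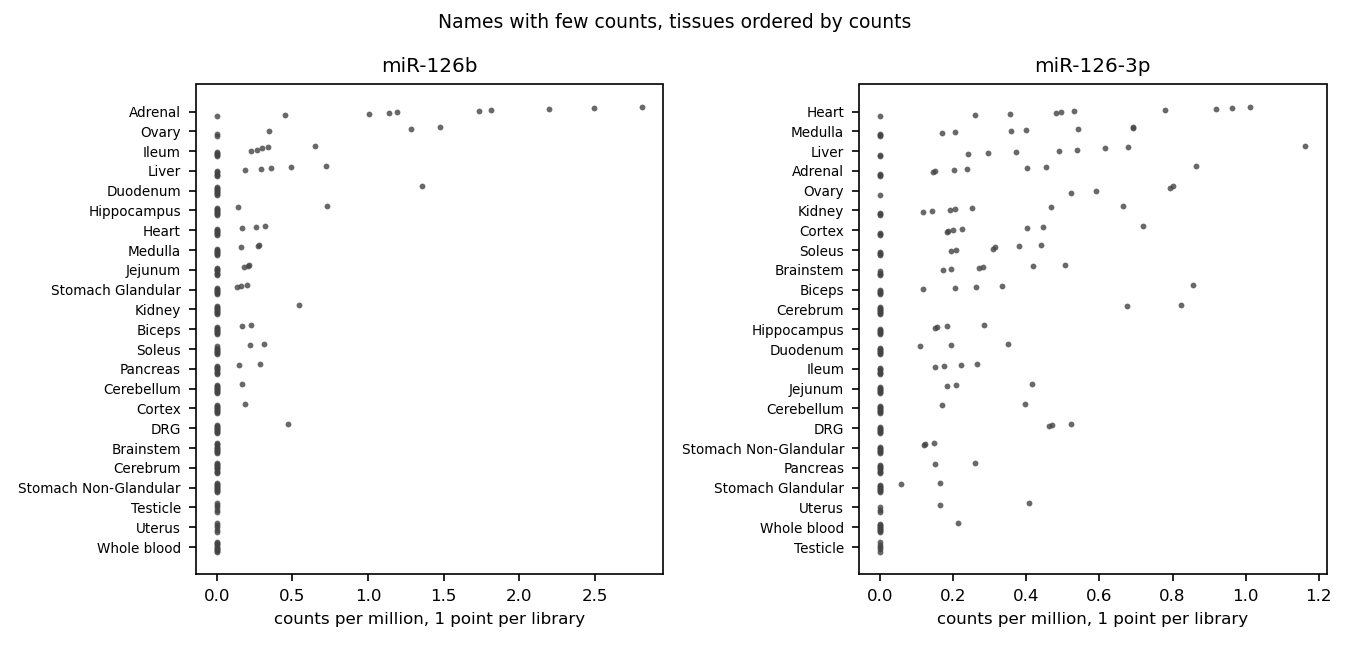
Levels of miR-126b and miR-126-3p in CPM, with 1 point per library, by tissue in the order of summed counts. miR-126b reaches 2.81 CPM in the adrenal and is at 0 in most libraries of other tissues, while miR-126-3p is spread over many tissues up to 1.16 CPM.

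The names whose tissue pattern was most like that of miR-126a-3p, by Pearson correlation of the tissue means of log2(CPM + 1) over 22 tissues, were miR-22-3p (0.910), a composite of miR-26a-2-3p (0.895), the composite of let-7a-1-3p and let-7c-2-3p (0.893), miR-30b-5p (0.888) and the composite of miR-27a-3p and miR-27b-3p (0.881). Without blood the values fell to between 0.701 and 0.845. For miR-126a-5p 4 of these 5 returned, with miR-30d-3p (0.878) in place of the last. miR-22-3p, an abundant miRNA of heart and muscle, had its highest mean in the heart (331891 CPM) and its lowest in blood (2073 CPM), as the arms of miR-126 did.

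Other miRNAs known from work on endothelium formed a list of 13 names, all tested, that was chosen with earlier results of these data known. In heart 8 of the 13 were higher and 1 lower, with a median log2 difference of 0.81, against 475 higher and 131 lower (7.98%) of 1641 names and a median of 0.22. The higher ones included miR-100-5p (1.85 ± 0.19), miR-27a-3p (1.80 ± 0.16), miR-23a-3p (1.76 ± 0.15), miR-24-3p (1.28 ± 0.13) and miR-130a-3p (1.16 ± 0.14), while miR-10b-5p was lower (-3.56 ± 0.68). miR-221-3p (-0.02 ± 0.28) and miR-222-3p (-0.45 ± 0.29), both known in vessels, were not called. In liver 5 were higher and 5 lower, where 30.8% of all names were called higher and 9.38% lower, with a median of 0.24 against 0.13 for all names.

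In blood 3 of the 13 were higher and 8 lower, where 36.1% of all names were called higher, with a median of -1.23 against 0.29 for all names. The higher ones were miR-92a-3p (5.70 ± 0.17), which red cells also hold, miR-181b-5p (2.09 ± 0.13) and miR-27b-3p (0.40 ± 0.15). The median of the list lay 0.59 above that of all names in heart, 0.11 above in liver and -1.51 from it in blood, and with the library total these gaps were 0.62, 0.04 and -2.58, while the liver median itself turned to -0.09 (-0.35 with TMM). Summed over the list, heart libraries held 46013 to 61570 CPM and blood libraries 13391 to 31610 CPM. Heart was not high among tissues in this sum, since 14 tissues had a higher median. The median was 57752 CPM in heart, 69688 CPM in liver (64837 to 76080 CPM, above every heart library), 459579 CPM in whole kidney, 520631 CPM in the adrenal and 558698 CPM in the kidney medulla. Single names made up much of these sums. Mean miR-10a-5p was 320922 CPM in the medulla and 12836 CPM in heart, and mean miR-10b-5p 302496 CPM in the adrenal and 1330 CPM in heart. In blood miR-92a-3p had 18808 CPM. The sum therefore does not give the order of the list as a group.

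Markers of other cell types were read beside the arms in heart, liver and blood. In heart all 6 striated muscle miRNAs were higher, with 123056 to 143941 CPM in sum, and so were 6 of the 7 blood cell miRNAs and 3 of the 4 smooth muscle miRNAs (1 with TMM). The 5 miRNAs of epithelium and the 5 of neurons and glia were all lower in heart, 1 of the 2 germ cell miRNAs was lower, and neither miR-122-5p of hepatocytes nor the 2 miRNAs of the exocrine pancreas were called. In liver miR-122-5p was higher by 14.31 on the log2 scale, all 7 blood cell miRNAs were higher (6 with TMM), and none of the 4 smooth muscle or 5 epithelial miRNAs was called.

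In blood all 7 blood cell miRNAs were higher, with 803543 to 905880 CPM in sum, although the library total called 5 higher and 1 lower. The 4 smooth muscle and the 5 epithelial miRNAs were lower in blood with upper quartile, TMM and library total scaling alike. The 6 striated muscle miRNAs were higher in 5 cases and lower in 1 on scaled counts, where the library total called 2 in each direction. In CPM their median sum was lower in blood than in any other tissue. It was 34.5 CPM in blood (8.47 to 3108 CPM, the highest in rat 6), 60.6 CPM in the adrenal and 73.7 CPM in liver. Blood cell miRNAs summed to 36649 to 95612 CPM in heart libraries and to 11262 to 18213 CPM in liver libraries, and the part of blood left in the organs was not tested.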

How the data were processed

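Small RNA libraries of 23 tissues were analysed. The authors trimmed adaptors with cutadapt 1.4.1, as the submitters' processing notes list, and deposited raw read counts per miRNA name and per isomiR sequence for 458 sequencing runs. These counts are not normalized. Runs of a library were summed (444 runs, 215 libraries), 14 runs were set aside, and the technical libraries of the DRG were summed to 2 pools. Library totals lay between 376401 and 17725805 counts. The methods describe no unique molecular identifiers, so intervals and limits from counts of 0 (3 counts) cover counting error only. By the study's methods, short reads and reads with an N were dropped and the rest were aligned by the miRDeep2 quantifier to miRBase hairpins of rat, and reads left over to those of mouse, human and C. elegans in turn, so a name may come from another species. Mature sequences and positions came from RefSeq (GRCr8).

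Tissues were tested with edgeR 4.0.16 (R 4.3.3) by the quasi-likelihood test with upper quartile scaling, filterByExpr on tissue and Benjamini-Hochberg adjustment over all 1641 names, at an adjusted p of 0.05. TMM, the library total alone and DESeq2 1.42.0 were alternatives. CPM used all counts of a library. Arm ratios (20 or more counts of each arm) and isomiR shares (100 or more counts of the name) were compared between a tissue and the mean of the other tissues of the same rat by a two-sided exact sign flip test with Benjamini-Hochberg adjustment (Python 3.11.15, scipy 1.17.1, pandas 2.3.3). IsomiR ends were placed on the locus within 6 bases. Settings that leave out lanes were chosen after the data were seen.

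The tissues other than the DRG, which has pools, come from the same 10 rats, so rats pair these samples by design. Deviations of libraries from their tissue means had a median correlation of 0.0088 within a rat and -0.0053 between rats. On simulated data with a log2 difference of 1 between heart and the other tissues, the test recovered 96.5% of 200 changed names among 1641, and 11 unchanged names were called. All tissues shared the same base profile in this simulation, with no effect of the rat. It therefore cannot show how the test deals with differences of composition between tissues.

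Named were the members, isomiRs with at least 3% of an arm's counts and the most counted sequence of each member, the 5 names most like each arm, and tissues past the threshold or among the 3 highest and lowest. Lists of vascular, blood cell, smooth muscle, striated muscle, epithelial, neural, hepatocyte, exocrine pancreas and germ cell miRNAs matched single names. Members and lists were chosen with earlier results of these data known.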

Additional observations from a re-analysis of the deposited data

Results flagged for a closer look

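In groups of 4 to 10 samples, the highest or lowest sample was compared with the gap that Dixon's test allows at its 95% level. Of 151 groups 26 had such a sample, from 17 libraries, and chance gives this in about 1 in 20 groups.

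For miR-126a-3p these were the adrenal of rat 8 with 771 CPM (others 1463 to 2011 CPM), the brainstem of rat 9 with 1431 CPM (others 1910 to 2178 CPM), the hippocampus of rat 7 with 2771 CPM (others 763 to 1200 CPM) and the ovary of rat 11 with 718 CPM (others 2494 to 2756 CPM). The glandular stomach of rat 6 had 747 CPM (others 427 to 578 CPM) and the blood of rat 6 had 155 CPM (others 3.11 to 13.6 CPM). The libraries of the adrenal of rat 8, the hippocampus of rat 7 and the ovary of rat 11 are among the 10 whose profile was closer to another tissue.

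For miR-126a-5p they were the adrenal of rat 8 with 2716 CPM (others 5114 to 7042 CPM), the cerebrum of rat 9 with 2006 CPM (others 4563 to 6397 CPM), the kidney cortex of rat 3 with 5761 CPM (others 7026 to 8430 CPM), the hippocampus of rat 7 with 11444 CPM (others 2226 to 4832 CPM), the pancreas of rat 10 with 4481 CPM (others 2224 to 3210 CPM) and the blood of rat 6 with 539 CPM (others 12.9 to 49.2 CPM).

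The log2 ratio of the arms stood apart in the ovary of rat 9 at 0.91 (others -2.06 to -1.77), in the cerebrum of rat 9 at -0.79 (others -1.97 to -1.45), in the cerebellum of rat 9 at -1.44 (others -1.90 to -1.70) and in the kidney cortex of rat 3 at -1.45 (others -1.98 to -1.71).

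Among isomiR shares of miR-126a-3p without lane 8, another 5′ end stood apart in the kidney cortex of rat 4 (30.1%), the duodenum of rat 7 (35.6%) and the liver of rat 2 (28.4%). The share of shorter 3′ ends stood apart in the cerebrum of rat 9 (19.6%), the kidney cortex of rat 9 (33.9%) and the ovary of rat 11 (34.2%), and that of longer 3′ ends in the duodenum of rat 7 (26.2%) and the kidney of rat 6 (19.9%). For miR-126a-5p shorter 3′ ends stood apart in the hippocampus of rat 6 (5.74%) and the ovary of rat 11 (5.94%).

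Signal was also present outside the comparisons. Precursor names with a miR-126 part held 960, 44, 31 and 11 counts, and of the 44 counts of mir-126b-pre 22 were in the adrenal. The 14 runs set aside held 30845 counts of miR-126a-3p and 101377 of miR-126a-5p.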

How the results depend on the processing

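Of 147 single results, recomputed to 2842 values under the alternatives, 2820 values kept their direction, 383 of these fell short of the threshold and 22 reversed. With the library total alone the values that reversed were 0.89 and 0.53 (brainstem and cerebrum, miR-126a-3p), 0.81, 0.54 and -0.43 (brainstem, cerebrum and uterus, miR-126a-5p), 0.23 and 0.11 (brainstem to adrenal, both arms), 0.00642 (testicle to duodenum), 0.20 and 0.0802 (duodenum to uterus, both arms), 0.17 (testicle to pancreas), 0.0886 (cerebellum to duodenum), and -0.29 and -0.12 (hippocampus to cerebrum, both arms). DESeq2 gave -0.0769 for liver to soleus in miR-126a-3p. Without the libraries closer to another tissue, hippocampus to cerebrum was -0.56 and -0.43 and miR-126b in duodenum -1.73, and leaving out each rat in turn gave -1.83 (without rat 11) to 1.75 for the latter. For another 5′ end of miR-126a-5p the difference turned to 0.00093 (hippocampus) and 0.045 (jejunum) percentage points with only flow cell D1GBMACXX and to 0.028 (jejunum) without lane 8. The cause was not tested.

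Counts of calls moved as follows. The library total called 11 tissues higher for miR-126a-5p, 3 neighbours and 7 anatomical contrasts for miR-126a-3p, and 3 and 8 for miR-126a-5p, where TMM called 5 neighbours. DESeq2 called miR-126b higher in 1 tissue. With only flow cell D1GBMACXX 0 tissues differed between sexes for either arm. Higher arm ratios (biceps) were called in 3 tissues with a pseudocount and no minimum, in 3 without lane 8 and in 0 without re-extracted libraries (n = 6 in the biceps). Lower ones (medulla and blood) were called in 1, the medulla, with only the other flow cells (n = 6 in blood).

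IsomiR shares called with only D1GBMACXX were 6 (most counted sequence) and 8 (other 5′ end) for miR-126a-3p and 7 (most counted), 0 (other 5′ end) and 2 (longer 3′ end) for miR-126a-5p. Without lane 8 they were 7 and 8, and 1 (other 5′ end) and 3 (longer 3′ end) for miR-126a-5p. With only the other flow cells they were 0 (other 5′ end, miR-126a-3p) and 2 (longer 3′ end, miR-126a-5p). Without re-extracted libraries they were 0 (other 5′ end) and 5 (shorter 3′ end) for miR-126a-3p and 1 (most counted), 0 (other 5′ end) and 4 (shorter 3′ end) for miR-126a-5p. Without libraries of RNA integrity below 7, 3 remained for another 5′ end of miR-126a-5p. A minimum 5 times higher gave 2 (other 5′ end, miR-126a-3p) and 1 (longer 3′ end, miR-126a-5p).

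With no replicate block, that is without pairing by rat, 4 tissues had a higher and 5 a lower arm ratio, and for isomiR shares 4, 3, 9 and 11 tissues (most counted, other 5′ end, longer and shorter 3′ end) were called for miR-126a-3p and 6, 9, 4 and 9 for miR-126a-5p. With the rat as a block in edgeR, without DRG, 8 tissues were higher and 7 lower for miR-126a-3p, 7 and 7 for miR-126a-5p, 9 and 14 neighbours and 4 and 5 contrasts differed, and miR-126b was not tested.

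Leaving out each rat or DRG pool in turn gave 7 to 9 higher and 5 to 7 lower tissues for miR-126a-3p, 6 to 7 and 6 to 7 for miR-126a-5p, 4 to 6 higher for miR-126b, 8 to 11 and 9 to 12 neighbours, 3 to 4 and 3 to 5 contrasts, 1 to 2 and 0 to 2 tissues between sexes, and 0 to 2 higher and 0 to 3 lower arm ratios. For isomiR shares of miR-126a-3p it gave 2 to 4 (most counted), 1 to 3 (other 5′ end), 6 to 7 (longer) and 6 to 9 (shorter), and for miR-126a-5p 2 to 4, 4 to 8, 0 to 2 and 7 to 8.

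Libraries with a count above 5 numbered 9 for miR-126b and 2 for miR-126-3p, and after thinning to 300000 counts 1 library of each had a count above 1, so depth limits these names. With the most counted name left out of the total, mean CPM was 9217 and 26940 in heart and 119 and 444 in blood, but the non-glandular stomach moved from 246 to 1546 and from 806 to 5049 CPM and the glandular stomach from 525 to 2037 and from 1556 to 6072 CPM. A count split over composite names was not run, since no composite held a member. Of 44 calls of isomiR shares without lane 8, 43 held without lanes 1, 4 and 6 of D2C4RACXX, 42 without libraries closer to another tissue, 38 without RNA integrity below 7 and 32 without re-extracted libraries, and 2 of the pancreas could not be measured in either of the last. Rat 4 alone ended the call of longer ends of miR-126a-3p in heart, and rats 4 and 7, each alone, those of longer ends in the biceps, of the most counted sequence in the ileum and of longer ends of miR-126a-5p in the cerebellum. Leaving out these lanes was chosen after the data were seen.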
